A study of Mus musculus with 50 samples.

Results

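The proteasome genes of the mouse were taken as every gene name in the count files that begins with Psm, followed by a letter from a to g, a number and at most a further letter, which gave 49 of 24984 genes. RNA was sequenced in 38 libraries and open chromatin (ATAC-seq) in 12. Untreated female C57BL/6 mice of 2.5 months (young) or 23 to 25 months (old) gave kidney and liver, with 4 RNA libraries and 3 ATAC-seq libraries in each of the 4 groups. Kidney and liver of C57BL/6 mice of 20 to 21 months that received DMSO or 3C gave 4 RNA libraries a group, and C57BL/6 skin fibroblasts labelled P9, with DMSO or 3C, gave 3 a group. The sources used here do not say what 3C or P9 stands for, nor the dose or time of treatment. The untreated and the DMSO and 3C sets differ in the tallies of unaligned reads, so no test was made across these sets. The study asked which transcription factors drive inflammatory gene expression in ageing kidney and liver.

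The proteasome breaks down ubiquitin-marked proteins. Its core is a barrel of outer alpha rings (Psma genes) and inner beta rings (Psmb genes), and only the beta subunits encoded by Psmb5, Psmb6 and Psmb7 cut proteins. In immune cells and in cells exposed to interferon, newly built cores take up Psmb8, Psmb9 and Psmb10 in place of Psmb5, Psmb6 and Psmb7, which makes an immunoproteasome that yields peptides suited to MHC class I. A regulatory particle of ATPases (Psmc genes) and other subunits (Psmd genes) unfolds the substrate, the PA28 activator (Psme1 and Psme2) offers another cap that interferon induces, and Psmg genes encode chaperones of core assembly.

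The 49 genes were split by these roles into 7 alpha ring subunits, 4 beta subunits that do not cut, 3 constitutive catalytic subunits, 3 immunoproteasome subunits, 6 ATPases, 11 other subunits and 3 assembly chaperones of the regulatory particle, 3 PA28 genes, 3 other regulators, 4 core assembly chaperones and 2 tissue-restricted core subunits. Psmb9 (chr17:34181987-34187764) and Psmb8 (chr17:34197721-34201454) lie 9.96 kb apart on mm10, in the MHC region beside Tap1. Psmb10 lies elsewhere, at chr8:105935735-105938444. Psme1 and Psme2 are neighbours on chromosome 14 with 5.91 kb between them. Reads were counted without strand, and 14.7% of the exon length of Psmb8 and 5.8% of that of Psmb9 overlap exons of Gm20496 and Tap1 on the other strand. Strand therefore cannot assign reads in those stretches. Where both genes are in the annotation used for counting, such reads went to an ambiguous tally (1.5% to 2.6% a library) and to neither gene. Psme2b is a close copy of Psme2, and the division of reads between them is uncertain.

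The RefSeq promoters (GRCm38.p6) of 41 of the 49 genes were searched on both strands for motifs of interferon-activated factors (the ISRE core, read as GAAA on each side of any 2 bases, and TTCNNNGAA, the GAS element), for TGACNNNGC, the antioxidant response element through which NRF1 and NRF2 act, for CCGGAAG, an ETS factor core, for an NF-kB motif (GGGA and CC on each side of any 4 bases) and for the CCAAT box. Promoters of a catalytic pair, Psmb8 and Psmb5, and of Psmb6 and Psme1 are shown from 150 bases before to 20 bases after the start, as members that the results turn on and that hold one of the first 3 motifs. Capitals mark the match.
Psmb8 (chr17:34198045-34198214, plus strand, GAS): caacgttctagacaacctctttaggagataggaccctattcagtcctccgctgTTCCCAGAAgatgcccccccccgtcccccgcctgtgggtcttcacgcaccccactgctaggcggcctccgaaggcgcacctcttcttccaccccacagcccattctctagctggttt
Psme1 (chr14:55578344-55578513, plus strand, ISRE core on the minus strand): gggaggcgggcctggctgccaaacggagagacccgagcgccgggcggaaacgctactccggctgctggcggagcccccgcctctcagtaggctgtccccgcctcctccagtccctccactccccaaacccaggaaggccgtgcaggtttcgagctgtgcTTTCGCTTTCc
Psmb5 (chr14:54617976-54618145, minus strand, antioxidant response element): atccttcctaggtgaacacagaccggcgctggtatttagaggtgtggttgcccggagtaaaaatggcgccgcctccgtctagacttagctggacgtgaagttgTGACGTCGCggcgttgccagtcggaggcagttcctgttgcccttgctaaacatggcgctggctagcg
Psmb6 (chr11:70525207-70525376, plus strand, antioxidant response element): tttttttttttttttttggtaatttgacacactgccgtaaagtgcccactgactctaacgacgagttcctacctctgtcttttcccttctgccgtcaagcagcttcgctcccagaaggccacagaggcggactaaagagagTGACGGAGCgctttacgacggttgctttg

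Over the full window of 250 bases before to 50 after the start, the antioxidant response element was in 6 of the 41 promoters (14.6%) and in 14% of all 27025 genes with a promoter. The ISRE core was in 5 of 41 (Psmb3, Psmd4, Psmd9, Psme1 and Psmg4) against 3.99% of all genes, and the GAS element in 3 of 41 (Psmb8, Psmd2 and Psmg1) against 9.55%. The ETS core was in 14 of 41 (34.1%), against 9.93% of all genes, and none of the 14 was an immunoproteasome gene. The NF-kB motif was in 10 of 41 (24.4%), against 22.9% of all genes, and the CCAAT box in 14 of 41 (34.1%), Psmb9 among them, against 41.1%. Psme4, not shown, held an antioxidant response element, an ETS core and an NF-kB motif. Psmb9, Psmb10 and Psme2 held neither interferon motif in this window. These matches describe letters and not binding.

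The libraries held 14.2 to 43.7 M counts in genes, of which the proteasome genes took 0.329% to 0.724%, or 59215 to 210087 counts a library. The tissue labels fitted their markers: the summed level of 6 proximal tubule genes was 8960 to 24847 CPM (read counts per library size, scaled over all 38 libraries) in kidney and at most 27.9 in liver, 6 hepatocyte genes reached 94174 to 325788 in liver, and 6 fibroblast genes 10098 to 15137 in the fibroblasts. In old kidney replicate 2 the hepatocyte genes reached 2634 CPM, against 43.7 to 125.3 in every other kidney library. Old liver replicate 1 had 0.498% of its counts in proteasome genes and the other 3 old livers 0.329% to 0.372%, and for the genes named below the change with age in liver is given with and without it.

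Among the subunits, levels per length ranged over orders of magnitude. In young kidney Psmb7 and Psmb4 led with 136.6 ± 21.1 and 133.8 ± 19.9 CPM per kb of exon (SD, n = 4), which do not differ beyond their spread. Psmb7 also led in young liver with 299.2 ± 78.7 CPM per kb, followed by Psmb1, Psmb3 and Psmb4 within its spread. In DMSO fibroblasts Psmb3, a structural beta subunit, led with 264 ± 23.6 CPM per kb (n = 3). At the other end, Psmb11, the catalytic subunit of thymus cortex, had at most 0.129 CPM in any library, and Psma8, a germ cell alpha subunit, had 0.0718 ± 0.0252 CPM per kb in young kidney and 0.929 ± 0.455 in young liver. Psmb11 was too low to test in any comparison, and Psma8 was tested only where liver took part. In young kidney the immunoproteasome subunits stood near the low end of the order of the 49 genes, with Psmb10 at place 42, Psmb8 at 45 and Psmb9 at 47 (8.51 ± 1.5 CPM per kb). In DMSO fibroblasts Psmb8 (3.997 ± 0.529 CPM per kb) was at place 46 and Psmb9 (1.23 ± 0.407) at 47, while Psmb10 was at 36 with 22.17 ± 3.2.

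Each immunoproteasome subunit was set against the constitutive subunit whose place it takes, as a ratio of CPM per kb within each library. The ratio Psmb8/Psmb5 was lowest in DMSO fibroblasts, at 0.0359 ± 0.0102 (SD, n = 3), and 0.0913 ± 0.0241 with 3C. It was 0.128 ± 0.00782 in young kidney, 0.382 ± 0.103 in old kidney, 0.626 ± 0.132 in young liver and 0.861 ± 0.166 in old liver (n = 4 each). The 4 young kidneys (0.117 to 0.133) and the 4 old kidneys (0.259 to 0.507) did not overlap, nor did the young kidneys and young livers, whereas the ranges of young liver (0.473 to 0.783) and old liver (0.745 to 1.1) did. In the DMSO and 3C tissues the same ratio was 0.466 ± 0.0863 in DMSO kidney, 0.331 ± 0.077 in 3C kidney, 1 ± 0.305 in DMSO liver and 0.867 ± 0.195 in 3C liver, with overlap between DMSO and 3C in both tissues.

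The other pairs showed the same pattern with age in kidney. Psmb9/Psmb6 was 0.0599 to 0.116 in young and 0.122 to 0.236 in old kidneys, and Psmb10/Psmb7 was 0.0862 to 0.105 and 0.155 to 0.207, without overlap in either pair. Among the DMSO groups all 3 ratios were lowest in fibroblasts and highest in liver, again without overlap. Psmb9/Psmb6 was 0.00774 ± 0.00299 in DMSO fibroblasts, 0.199 ± 0.0327 in DMSO kidney and 0.361 ± 0.144 in DMSO liver, and Psmb10/Psmb7 was 0.106 ± 0.00379, 0.285 ± 0.0415 and 0.55 ± 0.178. Summed per kb over the 3 pairs, the immunoproteasome subunits made up 5.36% ± 0.295 of catalytic subunit transcript in DMSO fibroblasts, 9.11% ± 0.485 in young kidney, 18.3% ± 3.23 in old kidney, 23.4% ± 5.44 in young liver and 30.1% ± 0.393 in old liver. The 4 old livers (29.7% to 30.5%) lay above the 4 young livers (17.1% to 28.1%) in this share, although no immunoproteasome gene was called in liver, and the difference in share was not tested. The share was 22.6% ± 2.64 in DMSO kidney, 17.4% ± 2.65 in 3C kidney, 35% ± 6.95 in DMSO liver and 31.9% ± 5.33 in 3C liver, with overlap in both tissues, and 8.49% ± 1.36 in 3C fibroblasts, all above the 5.19% to 5.7% of the DMSO fibroblasts.

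**Figure D1:**
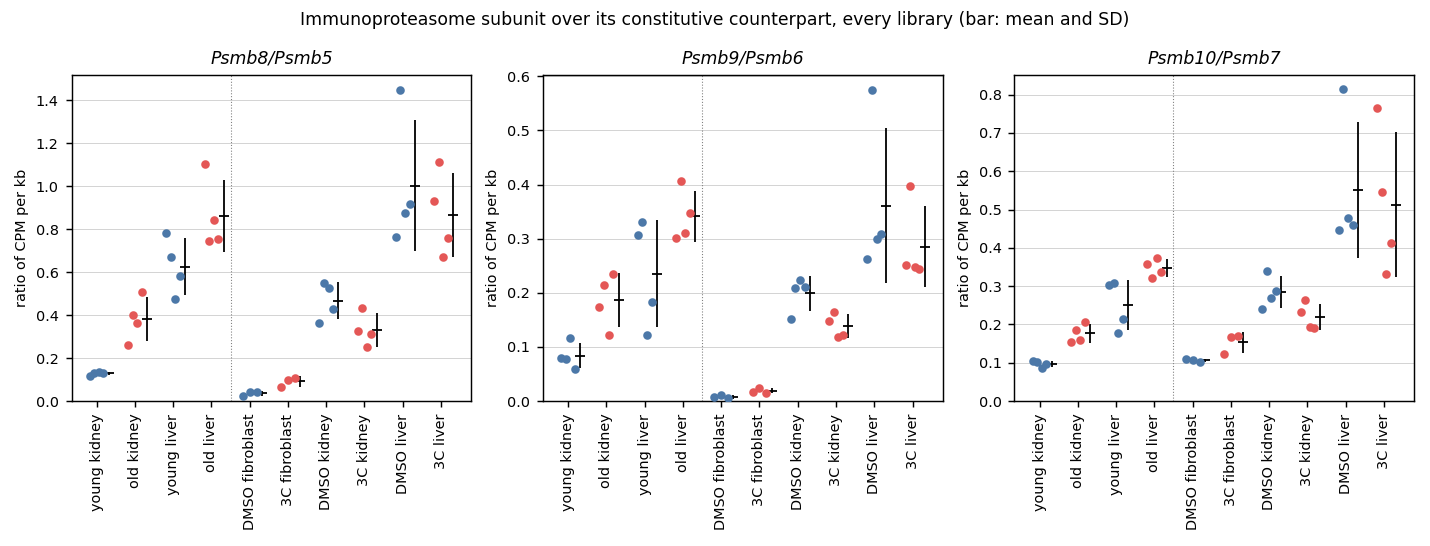
Ratio of the CPM per kb of each immunoproteasome subunit to that of the constitutive subunit it replaces, on linear axes from 0, for every library (points) in the 10 RNA groups, with the mean and SD as bars. The 4 young kidneys lie at 0.117 to 0.133 for Psmb8/Psmb5 and the 4 old kidneys at 0.259 to 0.507. The dotted line separates the untreated set from the DMSO and 3C set.

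In old kidney all 3 immunoproteasome subunits and both PA28 subunits were higher than in young kidney, and the PA200 activator gene Psme4 was lower. No gene of the constitutive core, of the regulatory particle or of the assembly chaperones passed the test. Psmb8 rose 2.79-fold, Psmb9 2.44-fold and Psmb10 2.03-fold, while the subunits they replace, Psmb5, Psmb6 and Psmb7, had folds of 0.962, 1.1 and 1.13. With edgeR's quasi-likelihood test and an adjusted p under 0.05 over all 14495 genes tested, 5 of the 47 proteasome genes tested were higher, against 8.15% of all genes, and 1 was lower, against 3.36% of all genes. With a fold above 2 asked for as well, 3 were higher, against 5.68%, and with a fold below 0.5 none was lower, against 0.407%.

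Psmb8, which encodes the chymotrypsin-like subunit of the immunoproteasome, was at 10.9, 12.2, 13.1 and 15.0 CPM in the 4 young kidneys and at 28.7, 32.05, 36.1 and 40.1 CPM in the old. Every old kidney lay above every young kidney. The log2 fold change was 1.48 ± 0.16 (SE, adjusted p = 0.000921). All errors of log2 fold changes are SE and those of levels and ratios SD. Psmb9 was at 6.16, 6.19, 8.66 and 6.42 CPM in young and 17.7, 14.3, 14.2 and 17.7 CPM in old kidneys, again without overlap, and its log2 fold change was 1.29 ± 0.17 (adjusted p = 0.00179). Psmb10, the trypsin-like subunit, was at 16.0, 15.6, 15.2 and 20.4 CPM in young and 32.9, 26.2, 39.1 and 33.4 CPM in old kidneys. These groups did not overlap either, with a log2 fold change of 1.02 ± 0.15 (adjusted p = 0.00253). In bulk tissue, more cells of a type and more RNA per cell cannot be told apart.

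**Figure D2:**
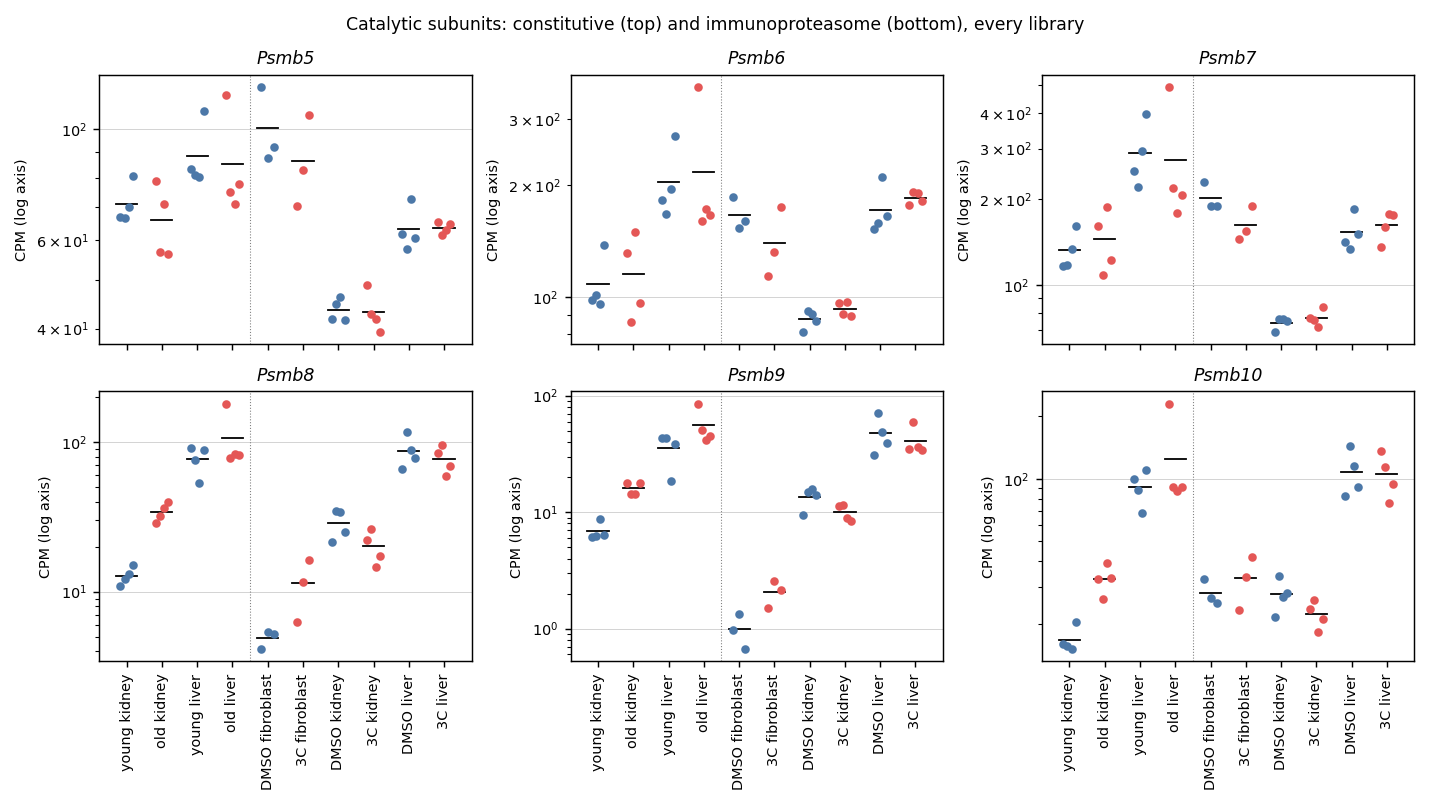
Level in CPM, on log axes, of the constitutive catalytic subunits (top) and the immunoproteasome subunits (bottom) in every library (points; black line, group mean) of the 10 RNA groups. Psmb8 lies at 10.9 to 15.0 CPM in young kidneys and 28.7 to 40.1 CPM in old kidneys, and old liver replicate 1 lies above the other old livers in all 6 panels.

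The constitutive partners overlapped between the ages. Psmb5 was at 66.7, 66.5, 70.0 and 80.6 CPM in young and 78.9, 56.8, 71.1 and 56.4 CPM in old kidneys, a log2 fold change of -0.06 ± 0.13 (adjusted p = 0.789). Psmb6 had a log2 fold change of 0.14 ± 0.18 (adjusted p = 0.622) and Psmb7 of 0.18 ± 0.17 (adjusted p = 0.507). Psme1, the PA28 alpha subunit, was at 50.4 to 66.8 CPM in young and 60.9 to 103.9 CPM in old kidneys, which overlap, and its log2 fold change was 0.69 ± 0.16 (adjusted p = 0.0233). Psme2, the beta subunit of PA28, was at 30.8 to 41.95 CPM in young and 37.7 to 66.8 CPM in old kidneys, with a log2 fold change of 0.64 ± 0.17 (adjusted p = 0.0373). Psme4 was at 116.5 to 154.6 CPM in young and 78.8 to 102.6 CPM in old kidneys without overlap, and fell by 0.54 ± 0.13 on the log2 scale (adjusted p = 0.0272). In all, 3 of the 47 genes were higher without overlap, against 10.9% of all genes, and 1 was lower, against 6.91%.

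The PA28 and Psme4 calls were near the threshold of the adjusted p and the immunoproteasome calls were not. Against the fold of 2, a log2 fold change of 1, Psmb10 lay close with 1.02, and at 0.95 to 1.14 with 1 library left out. Psmb8, Psmb9 and Psmb10 kept their calls with each library left out and under every other alternative tried. Psme1 lost its call without young kidney replicate 1 (adjusted p = 0.0704), 2 (0.0817) or 3 (0.0789) or old kidney replicate 1 (0.0554) or 4 (0.0718). Psme2 lost it without young replicate 1 (0.0972), 2 (0.122) or 3 (0.112) or old replicate 1 (0.0856), 3 (0.076) or 4 (0.0816). Psme4 lost it without young replicate 1 (0.0628), 2 (0.0898) or 3 (0.0789) or old replicate 4 (0.0854). With the replicate number as a block, Psme2 (0.63, adjusted p = 0.0661) and Psme4 (-0.54, adjusted p = 0.0645) were not called. Without old kidney replicate 2, the library with hepatocyte transcripts, all 6 calls held, the log2 fold changes of Psmb8, Psmb9 and Psmb10 were 1.5, 1.33 and 1.11, and Psmc4, an ATPase subunit, was called higher as well. The number of all genes called moved with the library left out, from 1182 higher and 487 lower to between 695 and 1670 higher and between 138 (without young kidney replicate 2) and 1770 lower (12.2%, without old kidney replicate 2).

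Most of the rest of the complex lay slightly above 0 in old kidney. The median log2 fold change was 0.15 over the 7 alpha subunits, 0.31 over the 4 structural beta subunits, 0.23 over the 6 ATPases and 0.13 over the 11 other regulatory particle subunits, with no call in any of these groups. It was 0.00 over the 3 assembly chaperones of the regulatory particle, 0.09 over the 4 of the core and -0.18 over Psme3, Psme4 and the inhibitor Psmf1, all 3 of them below 0. Without the immunoproteasome and PA28 genes the median was 0.15, with 32 of 41 above 0. Over all 47 genes the median was 0.18, with 38 above 0, beside a median of 0.02 over all genes tested. With 1 library left out the median of the proteasome genes ranged from 0.08 (without old kidney replicate 3, beside 0.01 over all genes) to 0.28 (without young kidney replicate 4, beside 0.04). With gene length and GC content corrected for, the median of the 47 genes was -0.02, with 22 above 0, beside -0.11 over all genes, so that the distance to all genes was 0.10 in place of 0.16. Under that correction Psme1, Psme2 and Psme4 moved to smaller log2 fold changes of 0.26, 0.26 and -0.34 and lost their calls (adjusted p = 0.0899, 0.131 and 0.0702). Psmb5 (-0.58, adjusted p = 0.0045), Psmd7 and Psme3 were called lower, beside 15.1% of all genes called lower.

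**Figure D3:**
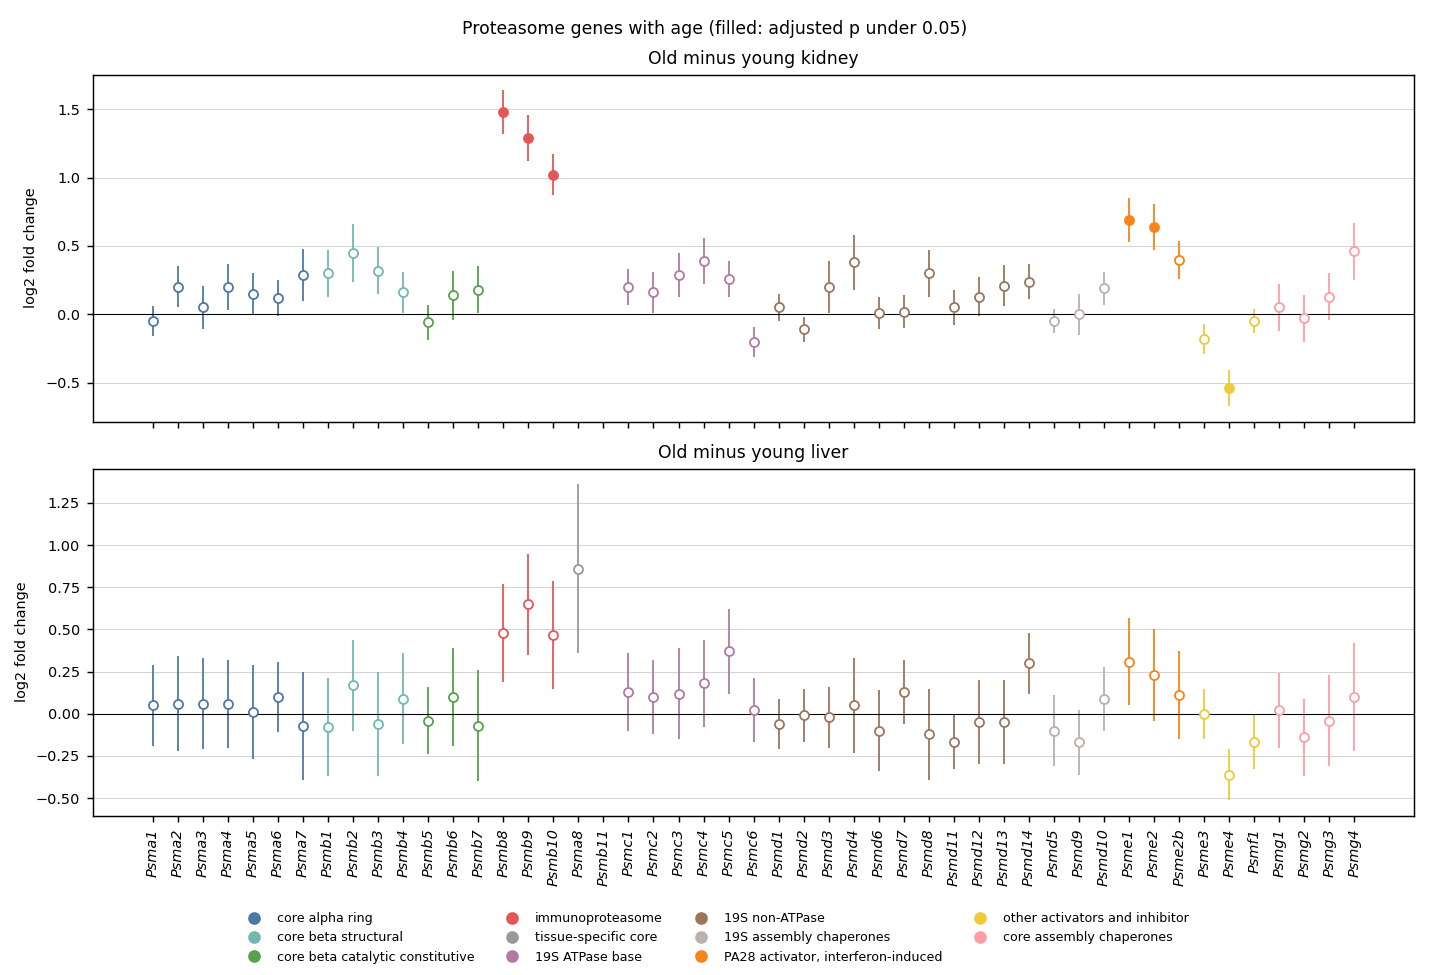
Log2 fold change of old against young kidney (top) and liver (bottom) for each proteasome gene tested, with the SE as bars and colours for the role of the subunit. Filled points passed an adjusted p under 0.05: Psmb8, Psmb9, Psmb10, Psme1, Psme2 and Psme4 in kidney and none in liver.

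Genes that act beside the immunoproteasome were higher in old kidney too. Of 12 MHC class I presentation genes tested, 7 rose and none fell, with a median log2 fold change of 0.69. The class I heavy chain H2-K1 was at 268.1 ± 26.3 CPM in young and 647.9 ± 47.3 CPM in old kidney (log2 fold change 1.33 ± 0.12, adjusted p = 0.000446), its light chain B2m rose by 1.22 ± 0.14 (adjusted p = 0.00114), and the heavy chain H2-D1 by 1.25 ± 0.16 (adjusted p = 0.00161). Of 15 interferon signalling genes, 10 rose and none fell, among them Ifit1 (1.70 ± 0.23, adjusted p = 0.00193), Irf7 (1.63 ± 0.26, adjusted p = 0.00422) and Irf8 (1.08 ± 0.17, adjusted p = 0.00441). None of 10 other proteasome-associated genes and none of 12 ubiquitin and shuttle factor genes passed the test, where 8.15% of all genes were higher and 3.36% lower, so that counts this low lie near the share of all genes. Of 12 genes of the NRF1 pathway, which sets constitutive proteasome levels, only Maff, a small MAF partner, did so (1.34 ± 0.25, adjusted p = 0.00805).

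Leukocyte genes were also higher in old than in young kidney. All 6 general leukocyte markers rose with age, and their summed level was 38.25 to 49.1 CPM in young and 156.1 to 277.7 CPM in old kidneys. All 6 macrophage markers tested rose, with a summed level of 108.4 to 133.1 CPM in young and 537.7 to 1026 CPM in old kidneys and the Kupffer cell gene Clec4f at 0 in young kidney. All 6 B and plasma cell markers rose, with a summed level of 4.68 to 9.51 CPM in young and 269.7 to 398.2 CPM in old kidneys, and 4 of 5 T cell markers rose (2.81 to 3.52 CPM and 12.8 to 19.1 CPM). The median log2 fold change was 2.51 over the leukocyte, 2.73 over the macrophage, 4.82 over the B and plasma cell and 3.22 over the T cell markers, beside 1.29 over the immunoproteasome subunits. The part of these cells in the immunoproteasome result was not tested. Of 6 proximal tubule genes, 2 fell and none rose.

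In old liver none of the 48 proteasome genes tested passed the test against young liver, beside 1.91% of 12537 genes higher and 0.558% lower. At an unadjusted p under 0.05 none of the 48 was higher, against 9.99% of all genes, and 1 was lower (Psme4, -0.36 ± 0.15, adjusted p = 0.299, and -0.29 without old liver replicate 1), against 4.74%. DESeq2 also called none, beside 4.94% of all genes higher and 1.91% lower. Psme4 was also the only proteasome gene without overlap, lower in all 4 old livers (3.9% of all genes), and none was higher without overlap (6.05%). Psmb8 was at 91.8, 76.2, 53.2 and 88.5 CPM in young and 181.1, 78.3, 84.0 and 82.7 CPM in old livers. For Psmb8 only old liver replicate 1 lay above all young livers, and the other 3 old livers lay within the young range. Psmb9 was at 43.4, 43.1, 18.6 and 38.3 CPM in young and 85.5, 50.6, 41.6 and 44.8 CPM in old livers, where replicates 1, 2 and 4 lay above all young livers. Young liver replicate 3 was the lowest of its group in Psmb8, Psmb9 and Psmb10. Psmb8 had a log2 fold change of 0.48 ± 0.29 (adjusted p = 0.531), Psmb9 of 0.65 ± 0.30 (adjusted p = 0.357) and Psmb10 of 0.47 ± 0.32 (adjusted p = 0.598). The partners Psmb5, Psmb6 and Psmb7 had -0.04 ± 0.20, 0.10 ± 0.29 and -0.07 ± 0.33, Psme1 0.31 ± 0.26 and Psme2 0.23 ± 0.27.

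Old liver replicate 1 set these values in large part. Of the 48 genes tested in liver, 44 were highest in that library among the 4 old livers, at a median of 1.89 times the mean of the other 3. Psmb6 was at 365.5 CPM there and at 160.1 to 172.2 CPM in the others, and Psmb10 at 230.7 CPM and 87.45 to 91.3 CPM. Without it the log2 fold changes of Psmb8, Psmb9 and Psmb10 with age were 0.09, 0.36 and -0.02, those of Psmb5, Psmb6 and Psmb7 -0.23, -0.28 and -0.52 and those of Psme1 and Psme2 0.04 and -0.13, none of them called, and the median over the 48 genes moved from 0.05 to -0.23, beside 0.00 over all genes with or without it. Within that library Psmb8/Psmb5 was 1.1, against 0.745 to 0.843 in the other 3, whereas Psmb9/Psmb6 was lowest there at 0.301 and Psmb10/Psmb7 lay within the range of the others.

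Leukocyte markers also lay higher in old liver, with 2 of 6 called and a summed level of 98.7 to 151.9 CPM in young and 184.4 to 382.3 CPM in old livers, and 2 of 7 macrophage and 4 of 5 B and plasma cell markers tested rose. None of 12 MHC class I presentation genes and 1 of 15 interferon signalling genes (Irf1, 0.89 ± 0.16, adjusted p = 0.0203) passed the test. Without old liver replicate 1, 4 of 6 leukocyte and 4 of 7 macrophage markers rose, and Irf1 had 0.81 (adjusted p = 0.0121). An interaction term compared the change with age in liver with that in kidney. None of 48 proteasome genes passed in either direction, beside 0.871% of 15036 genes above and 0.845% below, and DESeq2 called none, beside 2.25% above and 2.7% below. At an unadjusted p under 0.05, 1 of the 48 (Psmb8) lay below, against 6.92% of all genes, and none above, against 7.11%. The effect on Psmb8 was smaller in liver than in kidney by 0.96 ± 0.35 on the log2 scale (unadjusted p = 0.0143, adjusted p = 0.199). Without old liver replicate 1 the difference was -1.34 for Psmb8 (adjusted p = 0.00757) and -1.0 for Psmb10 (adjusted p = 0.0285), both then called, beside 1.32% of all genes. Among the presentation genes H2-K1 differed by tissue with all libraries (-1.53 ± 0.31, adjusted p = 0.0191) and without that one (-1.68, adjusted p = 0.00689).

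Young kidney and young liver differed in most of the complex, with 41 of 48 genes tested lower in kidney relative to the other genes of each tissue. Apart from Psma8, which was close to 0 in kidney, the immunoproteasome and PA28 genes had the lowest log2 fold changes. Psmb8 was at 10.9 to 15.0 CPM in young kidneys and 53.2 to 91.8 CPM in young livers, and its log2 fold change (kidney against liver) was -2.61 ± 0.19 (adjusted p = 1.61e-07). Psmb10 was at 15.2 to 20.4 and 68.2 to 110.8 CPM (-2.47 ± 0.18, adjusted p = 1.38e-07), and Psmb9 at 6.16 to 8.66 and 18.6 to 43.4 CPM (-2.41 ± 0.26, adjusted p = 5.64e-06). Psme2b, Psme2 and Psme1 followed with -1.95 ± 0.17, -1.85 ± 0.17 and -1.54 ± 0.19. Psma8 had -3.60 ± 0.51. In each of these 7 genes the groups did not overlap with TMM scaling, and with library size alone Psmb9 and Psme1 did.

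For the constitutive subunits the direction depends on the scaling. With TMM scaling, the 41 of 48 genes lower in kidney stood against 30.2% of 14057 genes, and none was higher, against 35.1%. The 7 not called were Psmb5, Psmc3, Psmd3, Psmd10, Psme3, Psme4 and Psmg4. With a fold below 0.5 as well, 18 were lower, against 16.9%, and with a fold above 2 none was higher, against 25.7%. With library size alone, the median of all genes moved from 0.08 to 1.16 on the log2 scale, and 16 proteasome genes were then higher, against 74.3% of all genes, and 7 lower, against 11.2%. The 7 lower were Psmb8, Psmb9, Psmb10, Psme1, Psme2, Psme2b and Psma8, whose direction held under both scalings at smaller sizes: Psmb8, Psmb9 and Psmb10 had -1.53, -1.34 and -1.38 with library size alone, and Psme2b, Psme2 and Psme1 -0.86, -0.76 and -0.45. Psmb5 turned from -0.33 ± 0.14 (adjusted p = 0.0541, and 0.00788 with the replicate number as a block) to 0.76 (adjusted p = 0.000103) and Psmb6 from -0.92 ± 0.18 (adjusted p = 0.000779) to 0.17, while Psmb7 was -1.15 ± 0.19 with TMM (adjusted p = 0.000245) and lost its call. Relative to the median of all genes the proteasome genes lay at -1.02 with TMM and -1.01 with library size alone.

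**Figure D4:**
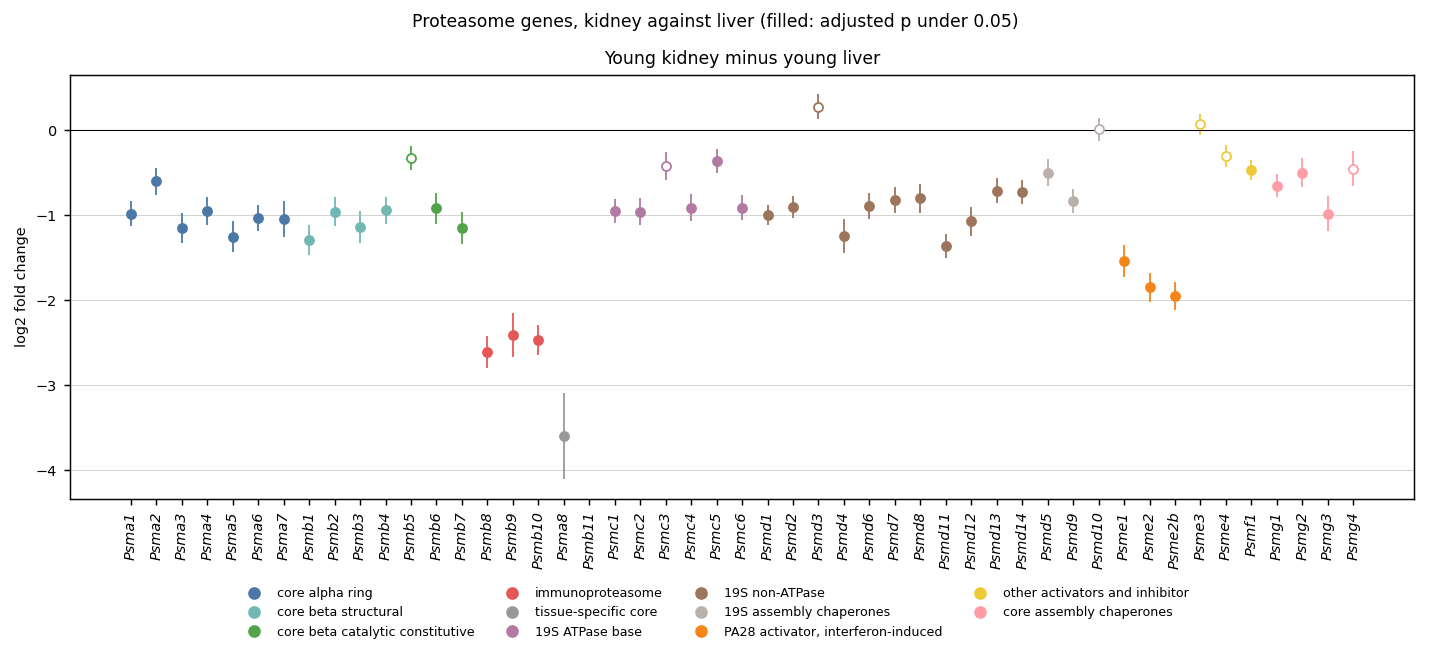
Log2 fold change of young kidney against young liver for each proteasome gene tested, with TMM scaling, the SE as bars and colours for the role of the subunit. Filled points passed an adjusted p under 0.05, and the immunoproteasome subunits lie at -2.41 to -2.61, below the median of -0.94 over all 48 genes. With library size alone that median is 0.15.

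The position of the kidney below the liver was also seen in the other sets, as a description. In old mice 30 of 48 proteasome genes were lower in every kidney library than in every liver library, beside 22.6% of all genes, and in DMSO mice 42 of 48 were, beside 30.8%. In young mice 40 of 48 were, beside 27.3%. No proteasome gene was higher in kidney without overlap in young, old or DMSO mice, beside 33.2%, 29.7% and 36.9% of all genes. These counts rest on TMM scaling. With library size alone, an alternative chosen after seeing the data, 5 were lower and 16 higher in young kidney, beside 10.1% and 70% of all genes, 4 lower and 12 higher in old kidney, beside 7.83% and 64.6%, and 9 lower and 19 higher in DMSO kidney, beside 10.4% and 73.7%. Psma8, Psmb10 and Psme2b were lower without overlap in all 3 sets under both scalings. Without old liver replicate 1, also tried after seeing the data, 30 were lower in old kidney, beside 28%, and 2 (Psmd3 and Psmd10) higher, beside 33.1%. Of the leukocyte markers 6 of 6 were lower in young kidney than in young liver, as were 11 of 12 MHC class I presentation genes, with medians of -1.46 and -1.81 with TMM and -0.37 and -0.74 with library size alone, and the part of these cells was not tested.

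In skin fibroblasts, Psmb8 was higher with 3C than with DMSO, and Psmb9 lay in the same direction without passing the test. Psmb8 was at 4.15, 5.34 and 5.18 CPM with DMSO and at 6.31, 11.6 and 16.4 CPM with 3C, without overlap but with a wider spread among the 3C libraries (SD 5.05) than the DMSO libraries (SD 0.647). Its log2 fold change was 1.24 ± 0.30 (adjusted p = 0.0432). Psmb9 was at 0.97, 1.33 and 0.671 CPM with DMSO and 1.503, 2.55 and 2.13 CPM with 3C (1.05 ± 0.34, adjusted p = 0.107), resting on 84 counts over the DMSO libraries and 152 over the 3C libraries. Psmb10 was at 32.8, 26.5 and 25.2 CPM and at 23.2, 33.8 and 42.2 CPM, which overlap (0.24 ± 0.20, adjusted p = 0.546). Of the 47 proteasome genes tested, 1 was higher, against 2.43% of 13449 genes, and none was lower, against 1.78%. DESeq2 gave the same counts, beside 4.29% of all genes higher and 3.67% lower. At an unadjusted p under 0.05, 2 of 47 were higher, against 10.7% of all genes, and 6 lower, against 9.47%.

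The call on Psmb8 depended on nearly every library. It was lost without DMSO replicate 1 (log2 fold change 1.14, adjusted p = 0.104), 2 (1.31, 0.0727) or 3 (1.29, 0.147) and without 3C replicate 2 (1.24, 0.129) or 3 (0.88, 0.0713), and held only without 3C replicate 1. The constitutive partners lay below 0: Psmb5 at -0.21 ± 0.18, Psmb6 at -0.24 ± 0.17 and Psmb7 at -0.30 ± 0.14 (adjusted p = 0.27). So did nearly all of the complex. The median over the 47 genes was -0.20, with 7 above 0, beside 0.01 over all genes. It was -0.11 without 3C replicate 1 and -0.28, with 3 above 0, without 3C replicate 3. In all, 9 genes were lower without overlap, beside 12.5% of all genes, and 2 (Psmb8 and Psmb9) higher, beside 13%. Psme1 (0.11 ± 0.18) and Psme2 (0.15 ± 0.18) were not called.

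Interferon genes were higher beside Psmb8 in fibroblasts. Of 15 interferon signalling genes, 9 rose with 3C and none fell, among them Gbp3 (2.65 ± 0.30, adjusted p = 0.00127), Irf9 (1.01 ± 0.12, adjusted p = 0.00146) and Stat2 (1.57 ± 0.19, adjusted p = 0.0015). Tap1, the peptide transporter gene beside Psmb9, was the only one of 12 presentation genes to pass (0.81 ± 0.13, adjusted p = 0.00625), with 5 higher and none lower at an unadjusted p under 0.05 and a median of 0.20. Leukocyte markers went the other way: their summed level was 35.6 to 50.7 CPM with DMSO and 17.0 to 23.6 CPM with 3C, 1 of 6 fell and none rose, and 2 of 6 macrophage markers tested fell (Lyz2 by 1.35 ± 0.18 on the log2 scale, adjusted p = 0.0027, and Csf1r). Of the T cell markers 4 of 5 were at 0 with DMSO and 5 of 5 with 3C.

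**Figure D5:**
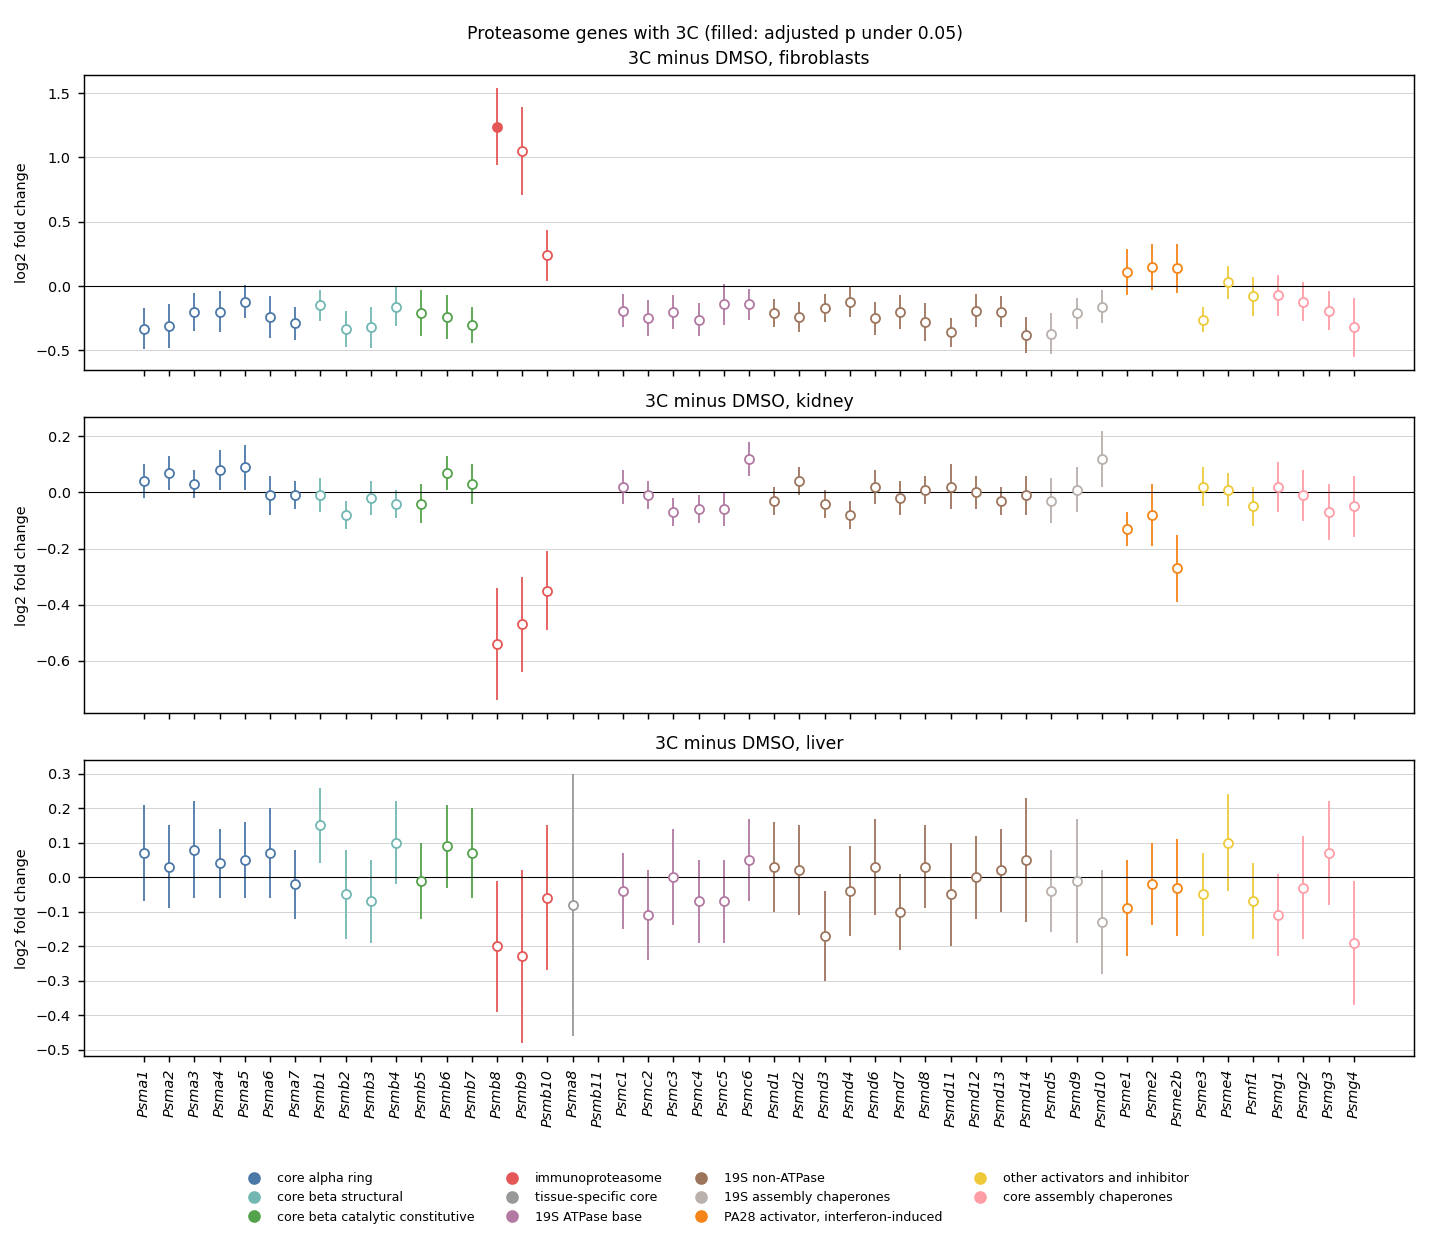
Log2 fold change of 3C against DMSO for each proteasome gene tested in fibroblasts, kidney and liver, with the SE as bars and an axis range of its own in each panel. The filled point is Psmb8 in fibroblasts (1.24), and in kidney Psmb8, Psmb9 and Psmb10 lie at -0.54, -0.47 and -0.35 without a call.

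In kidney of mice of 20 to 21 months no gene passed edgeR's test with 3C, neither among the 47 proteasome genes tested nor among all 14974 (0% in both directions). DESeq2 called 73 genes higher and 158 lower, none of them among the 47. Without 3C kidney replicate 2 edgeR called 4 genes higher and 25 lower, and without replicate 1 it called 1 lower, again none among the 47. By the unadjusted p, 4 of the 47 were lower, beside 7.09% of all genes, and none was higher, beside 4.84%. These 4 were Psmb8, Psmb9, Psmb10 and Psme2b. Psmb8 was at 21.4, 34.5, 34.2 and 25.0 CPM with DMSO and 22.3, 26.1, 14.65 and 17.4 CPM with 3C, which overlap, with a log2 fold change of -0.54 ± 0.20 (adjusted p = 0.326). Psmb9 had -0.47 ± 0.17 (adjusted p = 0.319) and Psmb10 -0.35 ± 0.14 (adjusted p = 0.369). Psmb5, Psmb6 and Psmb7 had -0.04 ± 0.07, 0.07 ± 0.06 and 0.03 ± 0.07, Psme1 -0.13 ± 0.06 and Psme2 -0.08 ± 0.11. Outside the immunoproteasome and PA28 genes, all 41 genes tested lay between -0.08 and 0.12. Leukocyte markers lay lower too, at a summed 82.96 to 122.7 CPM with 3C and 127.9 to 204.5 CPM with DMSO, without overlap, with none of 6 called and 6 of 6 lower at an unadjusted p under 0.05. Macrophage markers were at 229.4 to 351.1 CPM with 3C and 359.4 to 400.7 CPM with DMSO, without overlap and with a median log2 fold change of -0.54, and of 6 tested none was called and 5 were lower unadjusted. B and plasma cell markers overlapped, at a summed 79.48 to 137.5 CPM with 3C (median 106) and 69.69 to 256.4 CPM with DMSO (median 84.87). T cell markers overlapped too, at 6.831 to 11.45 CPM with 3C (median 9.339) and 10.28 to 25.47 CPM with DMSO (median 12.07). Of 12 MHC class I presentation genes, 6 were lower at an unadjusted p under 0.05, with none called, and of 15 interferon signalling genes 5 were, with none called and a median log2 fold change of -0.28. Fibroblast markers were at a summed 168.2 to 284.4 CPM with 3C and 311.5 to 420.4 CPM with DMSO, without overlap and with a median log2 fold change of -0.72, and of the 6 none was called and 5 were lower at an unadjusted p under 0.05. The part of these cells was not tested. Psmb2 and Psmd4 alone were lower without overlap (3.84% of all genes) and none was higher (3.1%).

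In liver of the same mice none of 48 proteasome genes passed with 3C, among 13042 genes of which 0% passed edgeR's test in either direction. DESeq2 called 4 genes higher and 2 lower, none of them among the 48. None of the 48 was under 0.05 unadjusted, beside 1.91% of all genes higher and 1.43% lower. Psmb8 was at 66.4, 117.1, 89.3 and 78.1 CPM with DMSO and 85.2, 95.8, 59.4 and 68.8 CPM with 3C (-0.20 ± 0.19), and Psmb9 and Psmb10 had -0.23 ± 0.25 and -0.06 ± 0.21. Psmb5, Psmb6 and Psmb7 had -0.01 ± 0.11, 0.09 ± 0.12 and 0.07 ± 0.13, and Psme1 and Psme2 -0.09 ± 0.14 and -0.02 ± 0.12, all with an adjusted p = 1. The 3C libraries overlapped the DMSO libraries in each of the 48 genes, where 1.1% of all genes were higher and 1.11% lower without overlap. The median over the 48 genes was -0.02, beside 0.00 over all genes.

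Promoter accessibility was read as the highest fold enrichment over local background of a deposited peak within 1 kb of a start site. In kidney 46 of the 49 genes had such a peak in all 6 libraries, and Psma8, Psmb11 and Psme2b had none in any. Old kidneys were all above young kidneys in 10 of the 46 (21.7%), beside 13.1% of 17810 genes, and all below in 2 (4.35%), beside 9.56%. With 3 libraries against 3 the exact permutation test used here cannot go below p = 0.1, so this test could call no promoter, and no model across all promoters was fitted. The 10 were constitutive or regulatory genes, such as Psmd4, a ubiquitin receptor of the regulatory particle (7.996, 8.37 and 7.95 in young, 10.25, 10.4 and 10.1 in old), and Psmb5 (5.81, 5.78 and 5.49 in young, 7.63, 6.06 and 5.88 in old). After scaling each library to its median promoter, 6 were higher (12.7% of all genes), Psmd4 among them and Psmb5 no longer, and 5 lower (15.4%), so the share of higher promoters was then close to that of all genes. Leaving out 1 library moved these counts: without old kidney replicate 2, 16 were higher (22.1% of all genes), without old kidney replicate 3, 8 were lower (17.9%), and without young kidney replicate 3, 5 were lower (19.8%).

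At the immunoproteasome promoters, Psmb8 had a fold enrichment of 6.68, 6.29 and 4.79 in young and 6.49, 4.39 and 4.32 in old kidneys, and Psmb10 had 6.91, 7.44 and 5.69 against 6.44, 5.99 and 6.87, with overlap between the ages in both. Psmb9, with 6.53, 7.49 and 6.58 in young and 5.68, 6.37 and 5.95 in old kidneys, was lower without overlap (exact permutation p = 0.1, the smallest possible), and no longer so after scaling to the median. Psme1 (mean 4.96 in young and 5.26 in old) and Psme2 (7.95 and 8.54) overlapped. None of these 5 promoters was higher in old kidney without overlap, where 13.1% of all were, so a count of 0 lies near the share of all genes. In liver 47 of the 49 genes had a peak in at least 1 library, old livers were all above young livers in 4 (8.51%, beside 6.97% of 17931 genes) and all below in 2 (4.26%, beside 6.22%), and Psmb8, Psmb9, Psmb10, Psme1 and Psme2 were among neither. Without old liver replicate 2 the number higher was 14 (19.7% of all genes) and included Psmb10 and Psme1, without young liver replicate 1 it was 8 (14.5%), and without old liver replicate 1 the number lower was 5 (12.2%).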

How the data were processed

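RNA-seq was deposited as counts per gene of each library. The authors trimmed reads (Trimmomatic 0.39), aligned them to mm10 (HISAT2 2.2.1) and counted reads without strand (HTSeq 0.12.4). For ATAC-seq the authors aligned reads (Bowtie2 2.3.5.1) and called peaks in each library (MACS2), and the deposited lists give each peak's fold enrichment as a ratio and its −log10 q. Comparisons by the authors with DiffBind 2.12.0 were not used here. The GENCODE vM21 annotation named 24534 of the 24984 genes. Groups came from the sample labels, and the sources used here do not say that libraries of a group came from separate animals or cultures, so p-values measure the spread between libraries.

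Reads outside genes were 5.7% to 19.1% of the counts and were left out. Genes were tested with edgeR 4.0.16 (R 4.3.3; quasi-likelihood F test, TMM, filterByExpr with a minimum count of 10, two-sided, Benjamini-Hochberg over all genes tested) within each pair of groups, with a call at an adjusted p under 0.05. A second count asked for a fold above 2 or below 0.5 too. SE is the log2 fold change divided by the root of F. CPM use TMM sizes over 38 libraries, and CPM per kb the length of curated RefSeq transcripts. Depth of 14.2 to 43.7 M counts limits the low genes Psmb9 (in fibroblasts), Psma8 and Psmb11. Replicates were compared for duplicates, and all 54 pairs differed beyond counting noise. Scripts were tested on simulated data. The results were also computed with DESeq2 1.42.0, with RLE size factors, without a filter, with a mean of at least 1 CPM, a fit of gene length and GC content, a replicate block, library size alone (chosen after seeing the data), left-out libraries, and for peaks a −log10 q of at least 5, a window of 500 bp and scaling to the library median.

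The members, gene lists and markers were chosen with earlier results of these data known. Named in every comparison were the 3 catalytic pairs, Psme1 and Psme2, then up to 3 called genes per direction by p, from each list too, and the ends of the order of levels. The presentation, interferon and leukocyte lists give no independent support. Psma8, Psmb2, Psmd4, Psmd7, Psme3, Psme4 in liver, Psme2b in kidney and the libraries singled out were named after their values were seen.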

Additional observations from a re-analysis of the deposited data

Results flagged for a closer look

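Of 80 sets of 4 libraries (10 named genes in 8 groups), 13 had a lowest or highest library farther from the rest than Dixon's 95% limit of 0.829 of the range allows, where chance gives about 1 in 20. Old liver replicate 1 accounted for 7 of them, always as the highest: Psmb5 at 117.1 CPM (70.9 to 77.9 in the others), Psmb6 at 365.5 (160.1 to 172.2), Psmb7 at 492.7 (178.1 to 217.6), Psmb8 at 181.1 (78.3 to 84.0), Psmb10 at 230.7 (87.45 to 91.3), Psme1 at 292 (149.6 to 167) and Psme2 at 232 CPM (99.6 to 116.6).

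Young kidney replicate 4 was the highest of its group in Psmb6 at 137.7 CPM (96.2 to 101.6 in the others), Psmb10 at 20.42 (15.15 to 16) and Psme1 at 66.81 CPM (50.4 to 51.9). Young kidney replicate 3 was highest in Psmb9 at 8.658 CPM (6.16 to 6.42), young liver replicate 4 in Psmb5 at 108.7 CPM (80.1 to 83.5) and 3C liver replicate 2 in Psmb9 at 59.01 CPM (34.3 to 36.4). The groups of 3 fibroblast libraries are too small for this check. No proteasome gene had an age effect that differed between kidney and liver by the interaction test with all libraries.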

How the results depend on the processing

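The 58 results on named proteasome genes, 15 of them called, were set against 976 alternative values, of which 738 belonged to results not called. The fold threshold is among the alternatives and keeps the fitted values. The side of the threshold was the same in 935 (890 of them with the same sign), the call was lost in 31 and gained in 8, and 2 reversed. All 31 losses fell on the 15 called results, since a result not called has no call to lose. The reversals were Psmb5 at 0.76 and Psmb6 at 0.17 (log2, young kidney against young liver) with library size alone in place of TMM, an alternative chosen after seeing the data. In old against young kidney the number higher (5) was 3 with length and GC content removed (7.64% of all genes), 3 with the fold threshold (5.68%) and 3 to 6 with 1 library left out (4.75% to 11.5%). The number lower (1) was 3 with length and GC content removed (15.1% of all genes), 0 with library size alone (1.51%), 0 with the fold threshold (0.407%) and 0 to 1 with 1 library left out (0.943% to 12.2%). In young kidney against young liver the number higher (0) was 1 with length and GC content removed (30.1% of all genes) and 16 with library size alone (74.3%). The number lower (41) was 7 with library size alone (11.2%) and 18 with the fold threshold (16.9%). Leaving out 1 library gave 0 to 1 higher with 3C in fibroblasts (0.7% to 2.52% of all genes) and 0 to 2 lower in the interaction of age and tissue (0.427% to 1.32%). For promoter peaks, scaling to the library median gave 6 higher (12.7% of all genes) and 5 lower (15.4%) in old kidney. Leaving out 1 library gave 11 to 16 higher (14.1% to 22.1% of all genes) and 2 to 8 lower (12.1% to 19.8%) in kidney. In liver it gave 5 to 14 higher (9.1% to 19.7%) and 2 to 5 lower (8.57% to 12.2%). Fewer libraries make a separation of the groups easier. Apart from that, the cause of these shifts was not tested. Over all genes DESeq2 called 1611 higher and 1385 lower in old kidney (1182 and 487 with edgeR) and 619 and 239 in old liver (239 and 70).

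With the replicate number as a block, 0 proteasome genes were lower (1.47% of all genes) and 4 higher (5.82%) in old kidney, where Psme2 and Psme4 lost their calls, and 1 (Psmd3) was higher (38.2%) and 45 lower (33%), Psmb5 among them, in young kidney against young liver. Libraries of the same number did not deviate together throughout. The correlation of deviations was 0.115, 0.21, 0.0998 and 0.441 between young kidney and young liver, and 0.262, 0.226, -0.29 and -0.0422 between old kidney and old liver. Between young and old kidney, which are different mice, it ranged from -0.289 to 0.294. Young kidney replicates 2, 3 and 4 and old kidney replicates 1 and 2 correlated best with the liver of their own number. The sources used here do not say whether these share a mouse, and the main tests took all libraries as independent. Psmb11, and Psma8 outside liver, were too low to test, and among the genes tested Psmb9 in fibroblasts rested on 84 and 152 counts in all.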
